A study of Mus musculus with 6 samples.

Results

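The complement and coagulation factors described here are the gene models that the deposited annotation assigns to the KEGG pathway of the complement and coagulation cascades. The *Serpin* genes and *Vsig4* were left out. They comprise 75 of the 55401 gene models, from 88 models of the pathway, and were chosen by this annotation and not by their values. Liver RNA of male C57BL/6 mice, 8 weeks old, was compared between 2 groups of 3 mice. One group (9/13-HODEs) received daily intraperitoneal injections of a mixture, in equal parts, of the linoleic acid oxidation products 9-HODE and 13-HODE. The dose was 0.5 μg in all per g body weight, and injections ran for 9 days. The other (Ctrl) received the PEG400 and water solvent on the same schedule. No genetic change is named for either group, and each library came from 1 mouse, so n = 3 mice per group throughout.

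Most complement and coagulation proteins of the blood are made by hepatocytes and secreted as inactive precursors. In complement, recognition molecules such as C1q and mannose-binding lectin activate serine proteases that build convertases on a target surface, and cleavage of C3 and C5 leads to assembly of the membrane attack complex from the terminal components. In coagulation, an extrinsic and an intrinsic series of proteases converge on thrombin, which turns fibrinogen into fibrin, and plasmin later dissolves the clot.

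In the livers of 9/13-HODEs-treated mice, no complement or coagulation gene passed the test adjusted over all genes, and most differences were small. The lowest unadjusted p values were those of *C6*, a component of the membrane attack complex, at -0.72 ± 0.19 on the log2 scale (SE), and *F13b*, the carrier subunit of coagulation factor XIII, at -0.52 ± 0.16 (SE). *Hc* (complement C5), *Fga* (the fibrinogen α chain) and *C1rb* (a C1r protease) were also at unadjusted p under 0.05 with lower levels in treated livers. *C1qb*, a chain of C1q, and *Plau*, urokinase, were at unadjusted p under 0.05 with higher levels.

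Counts totalled between 70300597 and 78615288 per library. Levels are given as FPKM, fragments per kilobase of transcript relative to library depth, which the deposited table scales for depth and length only. All 8 hepatocyte markers were detected in the 6 libraries, with a summed level of 61774 to 68619 FPKM in Ctrl and 57713 to 68289 FPKM in treated livers. The sum came mostly from *Alb*, *Apoa1* and *Ttr*. Of the 8 markers, 5 had positive fold changes. Among these 5, *Apob* was at 9.30, 8.04 and 67.8 FPKM in the Ctrl livers and 93.3, 93.3 and 7.74 FPKM in the treated livers. *Cps1* (-0.28, unadjusted p under 0.05 in edgeR) and *Ahsg* (-0.39) were lower in treated livers without overlap. Of all genes with a mean of at least 0.1 FPKM, 9.82% were lower without overlap and 3.61% were lower at that p. The part of *Cps1* and *Ahsg* in the lower levels given for hepatocyte-made members was not tested. Transcripts of the mitochondrial genome took 6.70% to 9.51% of counts in the Ctrl libraries and 10.5% to 11.8% in the 9/13-HODEs libraries, without overlap, and FPKM makes no allowance for this. The edgeR scaling factors (TMM) that allow for such shifts were 0.989 to 1.07 in Ctrl and 0.927 to 1.02 in treated libraries. In bulk tissue, fewer cells of a type and less RNA per cell cannot be told apart.

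The levels of the 75 genes spanned the range from no read to a mean of 1881 FPKM. A mean of at least 0.1 FPKM over the 6 libraries was required for testing and was met by 59 genes, 42 of which had a mean of at least 10 FPKM. *Vtn*, *Kng1*, *Fgg*, *C3*, *Fgb* and *Fga* together held 55.2% of the summed mean FPKM of all 75. Summed over the 75 genes, the share of library counts was 3.18%, 3.50% and 3.61% for the Ctrl mice and 3.10%, 2.96% and 3.27% for the treated mice. The ranges overlapped, and with the mitochondrial transcripts left out the shares were 3.50%, 3.87% and 3.87% against 3.51%, 3.35% and 3.66%. Among the 42 abundant genes the SD within a group, as a percentage of its mean, had a median of 9.95% in Ctrl and 9.04% in treated livers. Among the 17 tested genes under 10 FPKM it was 27.0% and 29.8%, so the latter resolve only larger differences.

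**Figure D1:**
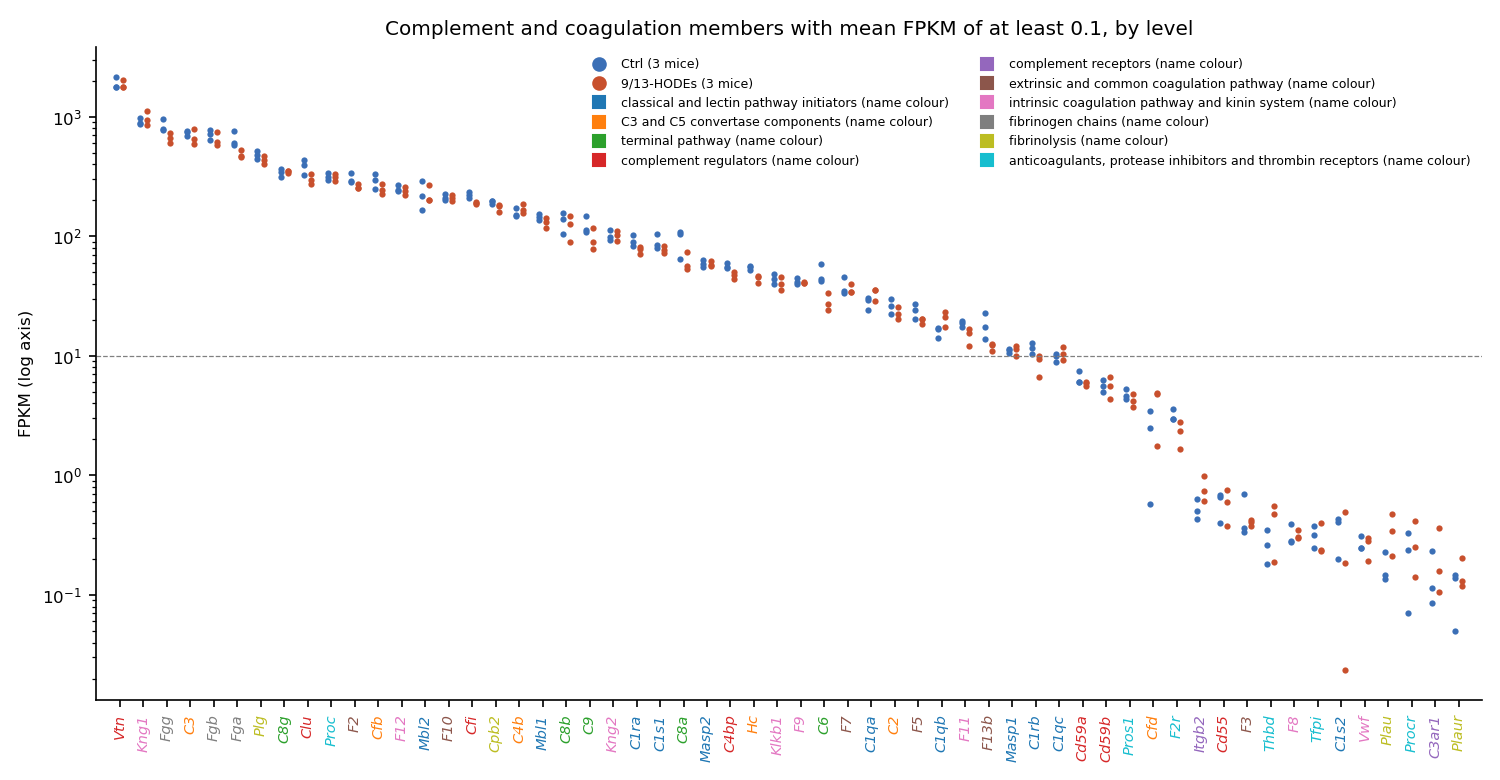
FPKM in each of the 6 libraries (log axis) for 58 of the 59 tested genes, ordered by mean level, with Ctrl livers in blue and 9/13-HODEs-treated livers in red and the gene names coloured by role. The 41 plotted genes above the dashed line at a mean of 10 FPKM have closely grouped points, and the spread between mice widens below it.

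Expression was compared with edgeR's quasi-likelihood test on the counts of the 14741 genes with a mean of at least 0.1 FPKM. With Benjamini-Hochberg adjustment over all of them, 3 genes (0.0204%) had an adjusted p under 0.05 and none was a complement or coagulation gene. The lowest adjusted p of a member in edgeR was 0.649, and DESeq2 called none of the members either, while calling 89 genes in all. At an unadjusted p under 0.05, 5 of the 59 tested members (8.47%) were lower in treated livers, against 3.61% of all tested genes. In the other direction, 2 of 59 (3.39%) were higher, against 4.08% of all tested genes. The split differed with another unit and test. With limma on log2(FPKM + 0.1), 9 members were lower and 1 higher, against 4.97% and 2.85% of all genes, and on log2(TPM + 0.1) it was 15 and 0, against 7.54% and 1.85%. Size factors in the manner of DESeq2 within edgeR left it at 5 and 2. At the study's fold threshold, a log2 ratio of mean FPKM beyond 0.65 in either direction, taken with an unadjusted p under 0.05, there were 2 members (3.39%), *C6* and *Plau*, against 3.11% of all genes. These shares rest on few genes, and the share past the fold threshold was near that of all genes.

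The groups did not overlap, with every treated library below every Ctrl library in FPKM, for 13 of the 59 members (22.0%), against 9.82% of all tested genes. Every treated library was above every Ctrl library for 1 member (1.69%), against 5.28% of all tested genes. Among genes with a mean of at least 10 FPKM, the corresponding shares were 12 of 42 members (28.6%) against 13.1% for lower levels, and 1 of 42 (2.38%) against 9.19% for higher levels. When FPKM was divided by the TMM factors, 10 members were lower and 2 higher without overlap, against 6.99% and 8.71% of all genes. On TPM, FPKM scaled to a common sum, 18 were lower and 0 higher, against 14.8% and 3.39% of all genes. The median log2 fold change was -0.06 over the 59 tested members and 0.00 over all tested genes, and -0.09 over the 42 abundant members against 0.04 over all genes of that level. Without treated replicate 1 the median was -0.01 over the tested members and -0.01 over all genes. Of the 59 log2 fold changes, 32 were negative and 27 positive.

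**Figure D2:**
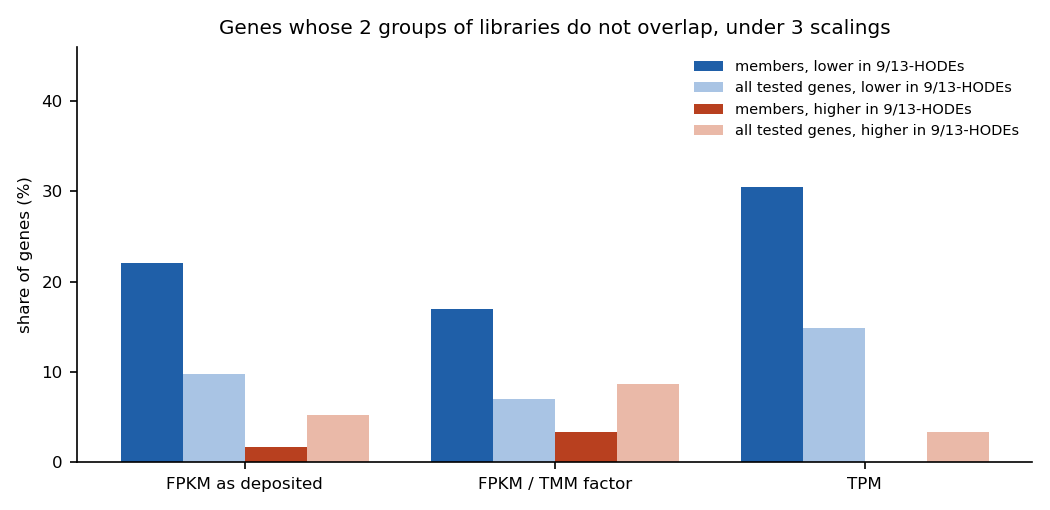
Share of genes (%) whose 3 treated libraries all lie below, or all above, the 3 Ctrl libraries, for the 59 tested members and for all 14741 tested genes, under the deposited FPKM, FPKM divided by the TMM factor and TPM. Under all 3 scalings the share of members with lower levels exceeds that of all genes (22.0% against 9.82% in FPKM) and the share with higher levels is below it; no test was made of these shares.

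**Figure D3:**
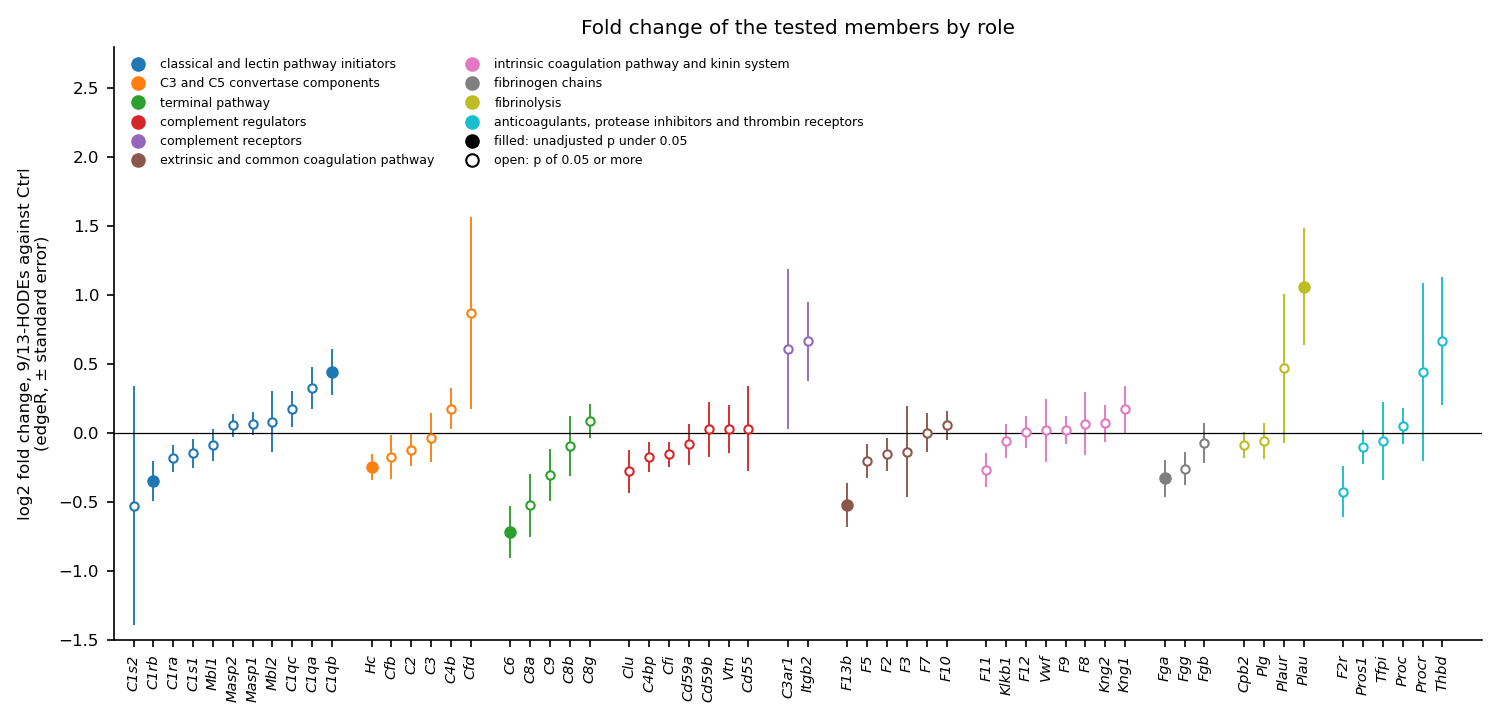
The log2 fold change of 58 of the 59 tested members, 9/13-HODEs against Ctrl, from edgeR with its standard error, grouped by role and ordered within each role. Filled points mark the 7 members with an unadjusted p under 0.05, none of which passed the adjusted test.

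The fibrinogen chains are encoded side by side on chromosome 3, in the order *Fgg*, *Fga* and *Fgb*, and the protein is assembled from all 3. To show the sequence next to the genes measured, the 250 bases before the RefSeq start of each are printed here 5′ to 3′ (GRCm38.p6). They are *Fgg* at chr3:83007474-83007723 on the plus strand, *Fga* at chr3:83025903-83026152 on the plus strand and *Fgb* at chr3:83049864-83050113 on the minus strand. Capitals mark GTTAAT, a half-site of the recognition sequence of the hepatocyte factor HNF1, and CTGGGA, the core of interleukin-6 response elements described in rat fibrinogen genes, on either strand. A half-site on the opposite strand reads ATTAAC.
Fgg: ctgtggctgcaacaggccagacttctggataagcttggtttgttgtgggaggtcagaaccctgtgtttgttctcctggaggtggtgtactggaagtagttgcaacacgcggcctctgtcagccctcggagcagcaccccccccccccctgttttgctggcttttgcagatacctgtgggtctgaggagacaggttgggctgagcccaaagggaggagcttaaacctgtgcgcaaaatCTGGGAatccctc
Fga: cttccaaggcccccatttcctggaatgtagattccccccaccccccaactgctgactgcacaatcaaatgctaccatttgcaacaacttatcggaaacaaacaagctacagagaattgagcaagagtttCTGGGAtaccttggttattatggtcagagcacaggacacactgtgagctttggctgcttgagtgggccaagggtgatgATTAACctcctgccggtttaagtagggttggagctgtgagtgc
Fgb: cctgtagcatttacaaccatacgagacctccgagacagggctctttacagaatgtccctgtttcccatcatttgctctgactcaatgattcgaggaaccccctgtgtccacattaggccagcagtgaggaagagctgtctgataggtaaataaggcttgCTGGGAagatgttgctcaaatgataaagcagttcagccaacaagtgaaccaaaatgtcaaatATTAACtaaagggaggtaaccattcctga
CTGGGA was present in all 3 stretches and GTTAAT in those of *Fga* and *Fgb*. Of 57 members with a RefSeq promoter, 14 (24.6%) held GTTAAT and 26 (45.6%) held CTGGGA within 250 bases, against 6.43% and 27.0% of 32851 promoters of all genes. The units differ, as a member was counted if any of its promoters held the motif (61 sequences). The 32851 promoters were counted singly, and the members' rule can raise their share. The motif matches are a description of letters and not of binding. The deposited gene model of *Fga* begins within the printed stretch.

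*Fga*, the α chain, was at 601, 577 and 753 FPKM in the Ctrl livers and 530.4, 462 and 471 FPKM in the treated livers. Each treated value lay below the lowest Ctrl value, and the log2 fold change was -0.33 ± 0.13 (SE), with an unadjusted p of 0.0458 and an adjusted p of 0.649 in edgeR. The unadjusted p was 0.05 or more whenever any 1 of the 6 libraries was left out, and with the replicate number as a block. *Fgg*, the γ chain, was at 767, 785 and 951 FPKM in the Ctrl livers and 726, 667 and 604 FPKM in the treated livers, again without overlap, and its log2 fold change was -0.26 ± 0.12 (SE). *Fgb*, the β chain, was at 638, 714 and 769.6 FPKM in the Ctrl livers and 738, 608 and 581 FPKM in the treated livers. Its groups overlapped, because treated replicate 1 was among the high values, and its log2 fold change was -0.07 ± 0.14 (SE). Within each library the ratio of *Fgg* to *Fgb* was 1.20, 1.10 and 1.24 in Ctrl and 0.983, 1.10 and 1.04 in treated livers. The closest values were 1.098 and 1.097, and the exact two-sided permutation p was 0.1, the smallest that 3 against 3 mice allow. The ratio of *Fga* to *Fgb* was 0.942, 0.808 and 0.978 against 0.718, 0.760 and 0.811, and the groups overlapped (exact permutation p = 0.2). Such ratios do not depend on the scaling between libraries, and 13 of them were computed in all, with no p below 0.1.

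**Figure D4:**
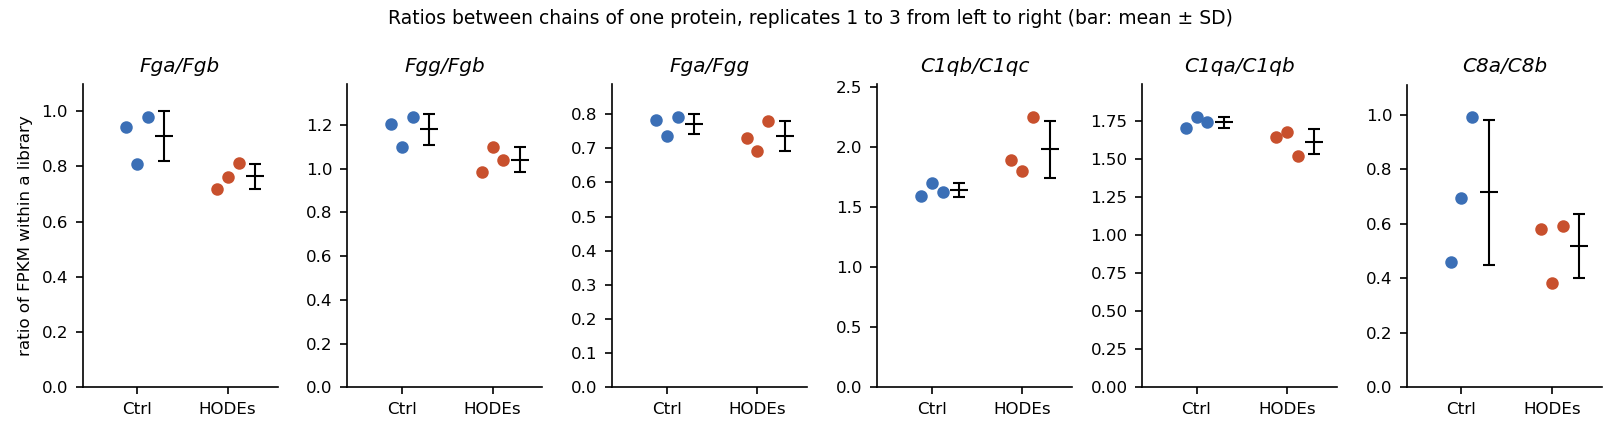
Ratio of FPKM between genes for chains of one protein within each library (points, replicates 1 to 3 from left to right; bars, mean ± SD of 3 mice), with axes starting at 0. *Fgg*/*Fgb* and *C1qa*/*C1qb* are lower and *C1qb*/*C1qc* higher in the treated livers without overlap, while *Fga*/*Fgb*, *Fga*/*Fgg* and *C8a*/*C8b* overlap.

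The terminal components C5b to C9 form the membrane attack complex. For the genes with the lowest unadjusted p in this step and in fibrin crosslinking, and for *Hc*, the stretches before the RefSeq start are shown, with the same motifs in capitals. They are *C6* at chr15:4726960-4727209 on the plus strand, *F13b* at chr1:139501457-139501706 on the plus strand and *Hc* at chr2:35061413-35061662 on the minus strand.
C6: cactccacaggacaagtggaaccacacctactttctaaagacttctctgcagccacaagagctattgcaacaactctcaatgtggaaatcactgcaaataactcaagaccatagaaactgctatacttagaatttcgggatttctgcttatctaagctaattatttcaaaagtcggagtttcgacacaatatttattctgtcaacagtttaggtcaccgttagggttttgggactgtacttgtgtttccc
F13b: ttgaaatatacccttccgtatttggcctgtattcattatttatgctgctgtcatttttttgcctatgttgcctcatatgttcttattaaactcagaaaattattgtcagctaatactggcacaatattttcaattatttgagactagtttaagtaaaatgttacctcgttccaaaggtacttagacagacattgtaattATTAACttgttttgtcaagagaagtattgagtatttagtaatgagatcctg
Hc: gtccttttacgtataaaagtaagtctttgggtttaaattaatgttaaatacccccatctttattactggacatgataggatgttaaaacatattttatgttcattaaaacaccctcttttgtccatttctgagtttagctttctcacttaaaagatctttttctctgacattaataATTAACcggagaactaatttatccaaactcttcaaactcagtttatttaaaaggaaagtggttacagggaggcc
*F13b* and *Hc* each held the HNF1 half-site and no CTGGGA, and neither motif was found in the stretch of *C6*. The deposited gene models of these 3 genes begin within the printed stretches.

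*C6* (ENSMUSG00000022181, chr15:4727175-4814967, plus strand) was at 42.0, 58.6 and 44.0 FPKM in the Ctrl livers and 24.0, 33.4 and 27.2 FPKM in the treated livers. Every treated liver was below every Ctrl liver. In edgeR the log2 fold change was -0.72 ± 0.19 (SE), with an unadjusted p of 0.00727 and an adjusted p of 0.649. Over the alternatives the adjusted p ranged from 0.115, in DESeq2, to 0.829. With each library left out in turn the log2 fold change lay between -0.82 and -0.51, with an unadjusted p under 0.05 in all 6 fits. *C8a*, the α chain of C8, was at 64.5, 108 and 103 FPKM in the Ctrl livers and 74.2, 56.3 and 53.1 FPKM in the treated livers. Ctrl replicate 1 was below treated replicate 1, so the groups overlapped, and the log2 fold change was -0.53 ± 0.23 (SE). The other chains of C8 differed less. *C8b*, whose gene lies next to *C8a* on chromosome 4, was at 139.9, 155 and 104 FPKM in the Ctrl livers and 127, 146 and 89.5 FPKM in the treated livers, with a log2 fold change of -0.09 ± 0.22 (SE). *C8g*, the γ chain, was at 343, 367 and 313 FPKM in the Ctrl livers and 337, 354 and 349 FPKM in the treated livers, with a log2 fold change of 0.09 ± 0.12 (SE). *C8a* was 0.461, 0.695 and 0.992 of *C8b* within the Ctrl libraries and 0.583, 0.384 and 0.593 within the treated libraries, which overlapped (exact permutation p = 0.4). *C9*, which forms the pore, had a log2 fold change of -0.30 ± 0.19 (SE) with overlapping groups, and treated replicate 3 was the lowest at 78.8 FPKM. *C7*, next to *C6* on chromosome 15, was almost silent, with 7, 0 and 22 counts in Ctrl and 8, 0 and 4 in treated livers. The median over the 5 tested terminal genes was -0.30, and 4 of 5 were negative.

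**Figure D5:**
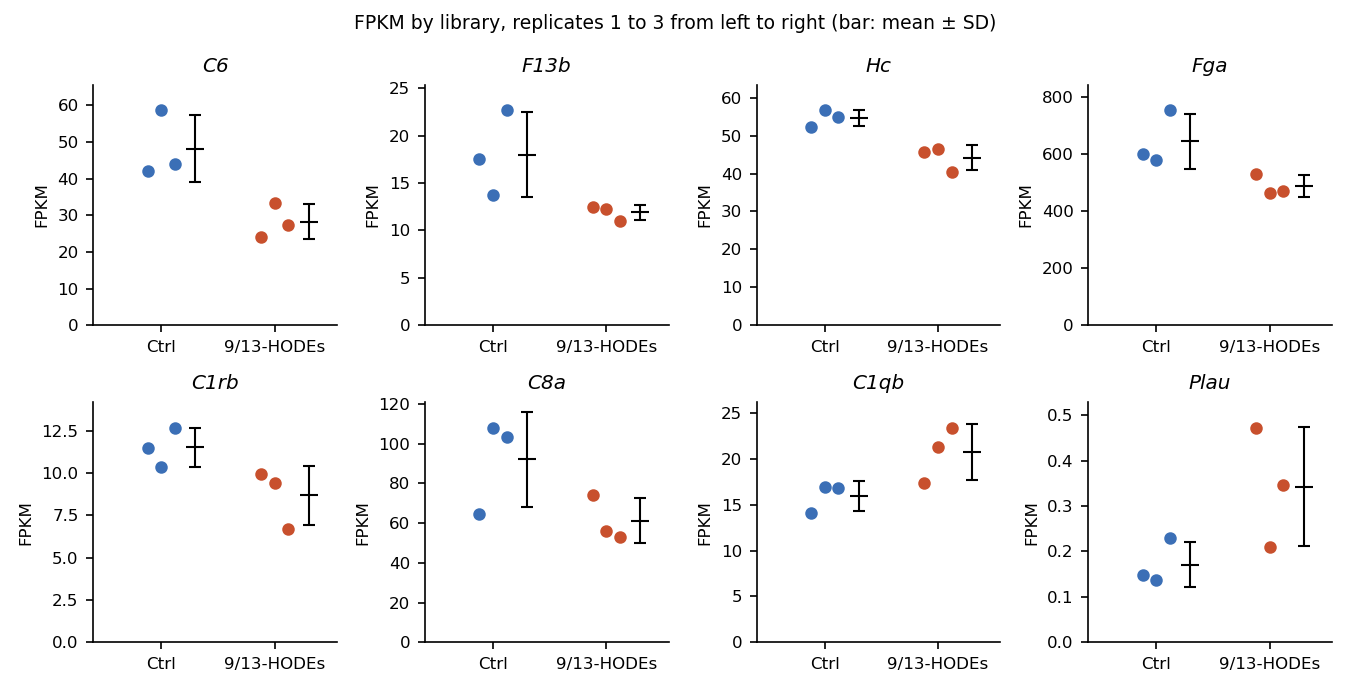
FPKM in each library for *C6*, *F13b*, *Hc*, *Fga*, *C1rb*, *C8a*, *C1qb* and *Plau* (points, replicates 1 to 3 from left to right; bars, mean ± SD of 3 mice), with axes starting at 0. *C6* is 24.0 to 33.4 FPKM in treated and 42.0 to 58.6 FPKM in Ctrl livers, while the groups of *C8a* and *Plau* overlap.

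The convertases are built from C2, C4, C3 and factor B, and C5 is cleaved by them. *Hc*, which encodes C5 in the mouse, was at 52.3, 56.7 and 55.0 FPKM in the Ctrl livers and 45.6, 46.4 and 40.4 FPKM in the treated livers. The groups were apart by more than the spread within either, at 54.7 ± 2.21 against 44.1 ± 3.28 FPKM (SD). Its log2 fold change was -0.25 ± 0.09 (SE), with an unadjusted p of 0.0337 and an adjusted p of 0.649 in edgeR, and the unadjusted p stayed under 0.05 in 1 of the 6 fits that left out a library. The call was also lost in DESeq2 and with the replicate number as a block. *C3*, the central component, was at 691, 745 and 759 FPKM in the Ctrl livers and 655, 591 and 788 FPKM in the treated livers, with a log2 fold change of -0.04 ± 0.18 (SE). *Cfb*, factor B of the alternative pathway, was at 247, 333 and 297 FPKM in the Ctrl livers and 276, 226 and 242 FPKM in the treated livers, with a log2 fold change of -0.17 ± 0.16 (SE). For both, the groups overlapped, although the lowest value was from a treated liver. *C4b* was at 149, 171 and 149 FPKM in the Ctrl livers and 156, 165 and 185 FPKM in the treated livers, also overlapping. Its transcript matches that of *C4a* at 96.0% identity, so the division of reads between them is uncertain. *C2*, next to *Cfb* on chromosome 17, had a log2 fold change of -0.12 ± 0.12 (SE). *Cfd*, factor D or adipsin, is made mainly by adipocytes, and was at 3.47, 2.48 and 0.582 FPKM in the Ctrl livers and 4.86, 1.77 and 4.79 FPKM in the treated livers. The values spread widely within both groups, and the log2 fold change was 0.87 ± 0.70 (SE). Of 5 adipocyte markers 1, *Retn*, reached the level for testing, at a mean of 0.103 FPKM. *Retn* had no count in any Ctrl liver and 61, 8 and 10 counts in the treated livers, so it was higher without overlap. Its unadjusted p was 0.00964 and its adjusted p 0.649 in edgeR. *Retn* met the filter of 0.1 FPKM only through the treated livers, at 0.492, 0.0546 and 0.0687 FPKM. Its separation and p are therefore no support for a difference. The summed level of the 5 markers was 0.0005 to 0.130 FPKM in Ctrl and 0.0550 to 1.32 FPKM in treated livers. It was highest in treated replicate 1, where *Cfd* was also highest, and *Adipoq* had no count in any other library. Treated replicate 3 had nearly the same *Cfd* level with a marker sum of 0.0691 FPKM, and Ctrl replicate 1 had 3.47 FPKM with no count of any of the 5 markers (the table gives 0.0001 for a count of 0). Their part in the *Cfd* values was not tested.

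The classical pathway starts with C1q, whose A, B and C chains are encoded together on chromosome 4 and are made mainly by macrophages. *C1qb* was at 14.1, 17.0 and 16.8 FPKM in the Ctrl livers and 17.4, 21.3 and 23.4 FPKM in the treated livers. Every treated liver was above every Ctrl liver, and *C1qb* was the sole tested member of which this was so in FPKM. Its log2 fold change was 0.44 ± 0.17 (SE), with an unadjusted p of 0.0330 and an adjusted p of 0.649 in edgeR, and the unadjusted p stayed under 0.05 in 2 of the 6 fits that left out a library. The call was also lost on log2(TPM + 0.1) with limma. *C1qa* was at 24.0, 30.1 and 29.3 FPKM in the Ctrl livers and 28.6, 35.7 and 35.6 FPKM in the treated livers and *C1qc* at 8.84, 9.96 and 10.4 FPKM in the Ctrl livers and 9.20, 11.8 and 10.4 FPKM in the treated livers. Both overlapped, with log2 fold changes of 0.32 ± 0.15 and 0.17 ± 0.13 (SE). The ratio of *C1qb* to *C1qc* was 1.60, 1.70 and 1.62 in Ctrl and 1.89, 1.80 and 2.25 in treated livers, without overlap (exact permutation p = 0.1). Of 9 markers of Kupffer cells or macrophages, all tested, 7 had positive fold changes and none had an unadjusted p under 0.05 in edgeR, with a median of 0.25. Their summed level was 30.5 to 40.6 FPKM in Ctrl and 33.5 to 43.4 FPKM in treated livers, none of them was absent, and their part in the C1q values was not tested. The markers did not all go the same way. *Timd4* was 0.595, 0.663 and 0.591 FPKM in the Ctrl livers and 0.743, 0.774 and 0.917 FPKM in the treated livers, higher without overlap. *Adgre1* (F4/80) was 0.486, 0.448 and 0.394 FPKM in the Ctrl livers and 0.275, 0.339 and 0.261 FPKM in the treated livers, lower without overlap. Of the 9 markers, 1 was thus higher and 1 lower without overlap, against 5.28% and 9.82% of all tested genes.

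C1r and C1s are the proteases of the C1 complex, and the mouse carries a copy of each on chromosome 6. *C1ra* was at 83.0, 88.7 and 103 FPKM in the Ctrl livers and 77.9, 81.6 and 71.0 FPKM in the treated livers, with no overlap between groups and a log2 fold change of -0.18 ± 0.09 (SE). *C1rb* was at 11.5, 10.3 and 12.7 FPKM in the Ctrl livers and 9.93, 9.43 and 6.69 FPKM in the treated livers, also without overlap. Its log2 fold change was -0.35 ± 0.14 (SE), with an unadjusted p of 0.0484 and an adjusted p of 0.649 in edgeR, and treated replicate 3 was the lowest. Without that library it was -0.22, and the unadjusted p stayed under 0.05 in 1 of the 6 fits that left out a library. The call was also lost in DESeq2, with a minimum of 1 FPKM, on log2(FPKM + 0.1) with limma and with the replicate number as a block. The transcripts of *C1ra* and *C1rb* match at 97.9% identity, so their separate values are uncertain. *C1s1* was at 79.2, 85.0 and 104 FPKM in the Ctrl livers and 76.3, 82.0 and 72.3 FPKM in the treated livers and overlapped. *C1s2*, which matches *C1s1* at 96.0% identity, lay between 0.0235 and 0.493 FPKM. In the lectin pathway, mannose-binding lectins recognise microbial sugars. *Mbl1* was at 146, 152 and 137 FPKM in the Ctrl livers and 118, 143 and 131 FPKM in the treated livers, with a log2 fold change of -0.09 ± 0.12 (SE). *Mbl2* was at 218, 165 and 289.7 FPKM in the Ctrl livers and 202, 202 and 268 FPKM in the treated livers, with a log2 fold change of 0.08 ± 0.22 (SE). The lectins thus overlapped between groups. Their proteases *Masp1* and *Masp2* had log2 fold changes of 0.07 ± 0.09 and 0.06 ± 0.08 (SE), and both overlap a gene on the opposite strand.

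Complement regulators limit these steps. *Vtn*, vitronectin, which binds the forming attack complex, was the most abundant member at 1780.0, 2158 and 1779 FPKM in the Ctrl livers and 1782, 1757 and 2029 FPKM in the treated livers. *Clu*, clusterin, which acts at the same step, was at 324, 397 and 431 FPKM in the Ctrl livers and 275, 297 and 332 FPKM in the treated livers. *Vtn* showed no separation, and in *Clu* only treated replicate 3 reached into the Ctrl range, with log2 fold changes of 0.03 ± 0.18 and -0.28 ± 0.16 (SE). *Cfi*, factor I, the protease that cleaves C3b and C4b, was at 208, 219.6 and 233 FPKM in the Ctrl livers and 191, 191 and 185 FPKM in the treated livers. *C4bp*, the C4b-binding protein and a cofactor of factor I, was at 55.0, 53.8 and 59.1 FPKM in the Ctrl livers and 43.6, 47.7 and 50.5 FPKM in the treated livers. Both were lower in every treated liver, with log2 fold changes of -0.15 ± 0.09 and -0.17 ± 0.11 (SE), but for *C4bp* the separation was lost when FPKM was divided by the TMM factors. The membrane inhibitors *Cd59a*, *Cd59b* and *Cd55* were low, between 0.380 and 7.44 FPKM, with log2 fold changes from -0.08 to 0.03. Complement receptors of leukocytes were near the floor. *Itgb2*, the shared β2 integrin chain, was at 0.435, 0.5001 and 0.632 FPKM in the Ctrl livers and 0.742, 0.613 and 0.996 FPKM in the treated livers and overlapped by 1 library, with a log2 fold change of 0.67 ± 0.29 (SE). When FPKM was divided by the TMM factors, it was higher in every treated liver. *C3ar1*, the C3a receptor, ranged from 0.0858 to 0.362 FPKM. *C5ar1*, *Cr2*, *Itgam* and *Itgax* did not reach the level for testing. Beside the macrophage markers given for C1q, other leukocyte markers had positive fold changes. The neutrophil genes *S100a8* and *S100a9* were at 1.46 and 1.63 and the B cell gene *Cd79a* at 0.71, none with an unadjusted p under 0.05 in edgeR. The groups overlapped for each, and treated replicate 2 was the highest library, at 3.19, 7.20 and 0.912 FPKM. The other treated livers were at 1.37 and 0.563 FPKM for *S100a8* and 1.19 and 2.63 FPKM for *S100a9*. The highest Ctrl values were 1.26 and 1.89 FPKM. *Camp*, *Ly6g* and *Ngp* had no count in any library. The list of neutrophil and blood genes summed to 40.4 to 120.2 FPKM in Ctrl and 54.4 to 83.7 FPKM in treated livers, mostly from *Hba-a1* and *Hbb-bs*, and that of lymphocytes to 0.573 to 1.59 and 1.37 to 1.75 FPKM. Their part in the *Itgb2* values was not tested.

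Factor XIII crosslinks fibrin, and its B subunit carries the catalytic A subunit in plasma. *F13b* (ENSMUSG00000026368, chr1:139501702-139523752, plus strand) was at 17.5, 13.7 and 22.7 FPKM in the Ctrl livers and 12.5, 12.2 and 10.96 FPKM in the treated livers. The groups did not overlap, and the Ctrl values spread more widely, at 18.0 ± 4.48 against 11.9 ± 0.812 FPKM (SD). In edgeR the log2 fold change was -0.52 ± 0.16 (SE), with an unadjusted p of 0.0138 and an adjusted p of 0.649. It was -0.36 without Ctrl replicate 3, the highest library, and the unadjusted p remained under 0.05 in all 6 fits that left out a library. *F13a1*, the A subunit, had 11 counts in treated replicate 1 and none elsewhere.

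*F2*, prothrombin, was at 290.5, 283 and 338 FPKM in the Ctrl livers and 251, 254 and 274 FPKM in the treated livers. It was lower in every treated liver, at a log2 fold change of -0.15 ± 0.12 (SE), but the groups overlapped when FPKM was divided by the TMM factors. *F10*, factor X, was at 209, 199 and 226 FPKM in the Ctrl livers and 222, 195 and 210.2 FPKM in the treated livers, with a log2 fold change of 0.06 ± 0.11 (SE), and its groups overlapped. *F7*, adjacent to *F10* on chromosome 8, and *F5*, the cofactor of factor X, had log2 fold changes of 0.00 ± 0.14 and -0.21 ± 0.12 (SE). *F3*, tissue factor, which starts the extrinsic pathway, stayed between 0.338 and 0.701 FPKM. The 6 vitamin K-dependent members, *F2*, *F7*, *F9*, *F10*, *Proc* and *Pros1*, had a median of 0.01.

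The intrinsic pathway and the kinin system showed few differences, with a median of 0.02 over 8 tested genes. *F11*, factor XI, was at 17.5, 18.8 and 19.5 FPKM in the Ctrl livers and 16.8, 15.5 and 12.1 FPKM in the treated livers. It was lower in every treated liver, and lowest in treated replicate 3, at a log2 fold change of -0.27 ± 0.12 (SE), with an unadjusted p of 0.0640 and an adjusted p of 0.666 in edgeR. *Klkb1*, prekallikrein, which lies beside *F11* on chromosome 8, overlapped at -0.06 ± 0.12 (SE). *Kng1*, the kininogen from which bradykinin is cut, was at 873, 878 and 978 FPKM in the Ctrl livers and 941, 855 and 1119 FPKM in the treated livers. *Kng2*, a second mouse kininogen, was at 93.2, 98.8 and 113 FPKM in the Ctrl livers and 103, 90.9 and 111 FPKM in the treated livers, and the transcripts match at 91.8% identity. Both overlapped, with log2 fold changes of 0.17 ± 0.17 and 0.07 ± 0.13 (SE). *F12*, factor XII, was at 238, 244 and 269 FPKM in the Ctrl livers and 221, 241 and 257 FPKM in the treated livers, with a log2 fold change of 0.01 ± 0.11 (SE). *F9*, factor IX, at 0.02 ± 0.10, and *F8* and *Vwf*, made largely by endothelium, at 0.07 ± 0.23 and 0.02 ± 0.23 (SE), overlapped as well. The bradykinin receptors *Bdkrb1*, with no count in any library, and *Bdkrb2* were not tested.

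In fibrinolysis, *Plg*, plasminogen, was at 442, 474 and 514 FPKM in the Ctrl livers and 437, 405 and 465 FPKM in the treated livers, with overlapping groups and a log2 fold change of -0.06 ± 0.13 (SE). *Cpb2*, which removes plasminogen binding sites from fibrin, was at 196, 197 and 185 FPKM in the Ctrl livers and 179.8, 182 and 159.6 FPKM in the treated livers. Its treated values were all below the Ctrl values in FPKM but not after division by the TMM factors, and the log2 fold change was -0.09 ± 0.09 (SE). *Plau*, an activator of plasminogen, was near the floor at 0.147, 0.137 and 0.229 FPKM in the Ctrl livers and 0.473, 0.210 and 0.346 FPKM in the treated livers. Treated replicate 2 was below Ctrl replicate 3, so the groups overlapped. In edgeR the log2 fold change was 1.06 ± 0.43 (SE), with an unadjusted p of 0.0432 and an adjusted p of 0.649, and the unadjusted p stayed under 0.05 in 2 of the 6 fits that left out a library. The call was also lost with limma on log2(TPM + 0.1), log2(FPKM + 0.1) and log2(FPKM + 1), and with the replicate number as a block. Over the alternatives that kept all libraries, the log2 fold change went down to 0.19. *Plaur*, its receptor, was at 0.47 ± 0.54 (SE), and *Plat*, the tissue activator, was not tested.

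Among the anticoagulants, *Proc*, protein C, was at 296, 339 and 312 FPKM in the Ctrl livers and 291, 315 and 332 FPKM in the treated livers, and *Pros1*, its cofactor protein S, at 4.63, 4.36 and 5.24 FPKM in the Ctrl livers and 3.70, 4.77 and 4.18 FPKM in the treated livers. Neither separated the groups, with log2 fold changes of 0.05 ± 0.13 and -0.10 ± 0.13 (SE). *F2r*, the thrombin receptor PAR1, was at 2.95, 2.98 and 3.59 FPKM in the Ctrl livers and 2.37, 2.79 and 1.65 FPKM in the treated livers. It was lower in every treated liver at a log2 fold change of -0.43 ± 0.19 (SE), with an unadjusted p of 0.0571 and an adjusted p of 0.658 in edgeR. *Thbd*, *Procr* and *Tfpi*, which endothelium expresses, were all at or under 0.555 FPKM with overlapping groups. Of 9 sinusoidal endothelium markers, 8 had positive fold changes, of which *Stab1* (0.58) and *Lyve1* (1.06) had an unadjusted p under 0.05 in edgeR and did not overlap. Over all tested genes, 4.08% were higher at that p and 5.28% were higher without overlap. The summed level of the list was 29.8 to 37.6 FPKM in Ctrl and 30.4 to 44.0 FPKM in treated livers. Their part in these genes was not tested.

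Of the members, 16 did not reach the level for testing. *Bdkrb1* and *Cd55b* had no count in any library. The others were *A2m*, *Bdkrb2*, *C5ar1*, *C7*, *Cd46*, *Cr2*, *F13a1*, *F2rl2*, *F2rl3*, *Itgam*, *Itgax*, *Itgb2l*, *Plat* and *Zp3r*. *Plat* was the one with most counts in a library, 79 in Ctrl replicate 1 and 26 and 32 in the other Ctrl livers, against 34, 4 and 43 in the treated livers. *Itgam* had 4, 0 and 11 counts in Ctrl and 17, 22 and 41 in treated livers, and most of its transcript is shared with another gene model. At such counts no difference was assessed. Among the tested members, *C8g*, *C2*, *F5* and *Plg* overlap another gene on the opposite strand, and *Cfb* shares over 50% of its transcript with another gene model, so reads may have been divided between them.

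Other genes that bear on these pathways were read from the same fit. Of the 12 *Serpin* genes of the KEGG pathway, 9 were tested, 7 had negative fold changes and 1 had an unadjusted p under 0.05, *Serpina1e*, an α1-antitrypsin gene, at -1.04. In FPKM 3 of the 9 were lower without overlap, against 9.82% of all tested genes. Near-identical transcripts were looked for among the members only, so the division of reads among the *Serpin* genes was not checked. *Vsig4* was at -0.06. Of a list of 5 genes, the vitamin K enzymes *Ggcx*, *Vkorc1*, *Vkorc1l1* and *Nqo1* and the secretory-pathway kinase *Fam20c*, 4 had negative fold changes, and 1, *Fam20c*, was lower at an unadjusted p under 0.05 in edgeR (-0.39) without overlap. *Ggcx*, the carboxylase that completes vitamin K-dependent factors, was 9.56, 9.19 and 9.99 FPKM in the Ctrl livers and 8.10, 8.20 and 7.76 FPKM in the treated livers, without overlap. Of the 5 genes, 2 were thus lower without overlap, against 9.82% of all tested genes. Of 14 liver transcription factors and interleukin-6 receptor genes, 2 were higher, *Cebpb* and *Nr1h4*, and 1 lower, *Nr5a2*, at an unadjusted p under 0.05 in edgeR. Of 19 acute phase genes, 2 were higher at that level, *Saa1* and *Saa2*, and 1 lower, *Crp*. For this and the lists before it, the shares of all tested genes at that level were 4.08% higher and 3.61% lower. Without overlap, 1 of the 19 was higher, *Orm1*, and 2 lower, *Crp* and *Ahsg*, against 5.28% and 9.82% of all tested genes. *Saa1* was 21.7, 36.1 and 15.5 FPKM in the Ctrl livers and 31.8, 36.8 and 163 FPKM in the treated livers. *Saa2* was 6.01, 10.7 and 3.50 FPKM in the Ctrl livers and 10.2, 13.7 and 49.2 FPKM in the treated livers. The groups overlapped for both, and treated replicate 3 stood apart. Without that library *C6* and *F13b* still had an unadjusted p under 0.05, together with *C4bp* and *Clu*, all lower in treated livers.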

How the data were processed

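Liver poly(A) RNA of 3 Ctrl mice and 3 mice given 9/13-HODEs was sequenced as strand-marked, paired-end libraries with molecular identifiers in the adapters. The authors deposited whole-number counts per gene model, not normalized, and FPKM values, which divide those counts by transcript length and by sequencing depth. Tools named in the submitters' processing notes, with no order or settings, were HISAT2 2.0.4 and StringTie 1.3.4d, cutadapt 1.9 and UMI-tools, and edgeR and DESeq2. The genome build, whether reads or molecules were counted, and whether the counting used strand are not given in the sources used here. For RNA extraction the sources disagree, between a TransZol Up Plus kit (methods) and Trizol (sample descriptions). All 75 gene models have the ID and start of GENCODE M21 (GRCm38), and 70 the end. Promoters came from RefSeq (GRCm38.p6), and 57 of 75 genes matched.

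Counts of genes with a mean of at least 0.1 FPKM were fitted with edgeR 4.0.16 (R 4.3.3; TMM, quasi-likelihood test, Benjamini-Hochberg, threshold 0.05), which was tested on simulated data. Alternatives used DESeq2 1.42.0, limma 3.58.1 on log2(FPKM or TPM + pseudocount of 0.1 or 1), other filters and scalings, and single libraries left out. Those without mitochondrial transcripts and with FPKM divided by TMM factors were chosen after seeing the data. BLAST+ 2.17.0 was used to look for near-identical transcripts. Genes were named by rule: an unadjusted p under 0.05, no overlap between groups, the 2 most abundant of each role, subunits and near-identical pairs, and *Cfd*. The values of 1 tested member are not reported here. Those named outside it with fold changes were chosen to cover the roles after their values were seen. The members, role lists and marker lists (hepatocyte, Kupffer cell, endothelium, stellate cell, cholangiocyte, blood, lymphocyte, adipocyte, mesothelium, platelet) were chosen with earlier results of these data known.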

Additional observations from a re-analysis of the deposited data

How the results depend on the processing

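No member had an adjusted p under 0.05 under any alternative. The count of members with an unadjusted p under 0.05 was 7, and it was 15, all lower, on log2(TPM + 0.1) with limma. On log2(FPKM + 1) with limma it was 12 (1 higher, 11 lower), against 2.802% of all genes higher and 5.01% lower. It was 4 to 8 with single libraries left out (4 without Ctrl replicate 1, 2 or 3 or treated replicate 3). In these fits 0 to 3 members were higher and 2 to 5 lower. Of all genes, 2.95% to 3.95% were higher and 2.27% to 3.66% lower in the same fits. The count at the fold threshold was 2, and it was 1 with a minimum of 1 FPKM, 1 on log2(FPKM + 0.1), 1 on log2(FPKM + 1) and 1 to 3 with single libraries left out (1 without Ctrl replicate 2 or treated replicate 3, 3 without treated replicate 1). The count of members without overlap was 14 and became 17 to 24 with single libraries left out, as fewer samples overlap less often. It was 22 without treated replicate 1 and 24 without treated replicate 2. The share of all genes without overlap was not computed with libraries left out, nor the share past the fold threshold under the alternatives. Those member counts therefore have no reference. The median log2 fold change, -0.06, was -0.20 on TPM, where that of all tested genes was -0.14. On log2(FPKM + 0.1) or log2(FPKM + 1) it was -0.12, where that of all tested genes was -0.06 and -0.03. With single libraries left out the members' median was -0.09 to -0.01, -0.01 without treated replicate 1 and -0.02 without Ctrl replicate 2. With the replicate number as a replicate block, 5 members had an unadjusted p under 0.05 (2 higher, 3 lower), against 3.22% of all genes higher and 2.83% lower. They were *C1qa* and *C1qb*, higher, and *C6*, *C9* and *F13b*, lower. In that fit 1 member passed the fold threshold and no gene passed the adjusted test. The correlations of same-numbered libraries (0.01, -0.03 and -0.04) gave no sign of pairing. The remaining marker lists had positive fold changes in 7 of 8 stellate cell, 4 of 5 cholangiocyte, 2 of 4 tested blood, 2 of 2 tested lymphocyte, 0 of 3 mesothelium, 4 of 4 platelet and 5 of 8 hepatocyte genes. The causes of these shifts were not tested. With 3 mice per group, and few counts for the members of lowest level, small differences could not be detected.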
